A study of Mus musculus with 15 samples.

Results

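A set of 10 genes of the Polycomb complexes and the DNA methylation machinery was followed in mouse islets that overexpressed constitutively active (ca) NFAT. These 10 genes were chosen by name, for what their proteins do, and are Ezh2, Ezh1, Suz12 and Eed of Polycomb repressive complex PRC2, Bmi1 and Cbx2 of the complex PRC1, the DNA methyltransferases Dnmt1, Dnmt3a and Dnmt3b, and the Dnmt1 partner Uhrf1. Each was present once among the 20308 genes of the expression table, and all 10 were among the 14151 genes whose level was high enough to test. On each of 5 days, the islets of 6 C57BL/6 mice were pooled and the pool was divided over adenoviruses for ca-Nfatc1, ca-Nfatc2 or GFP, the control, each driven by the cytomegalovirus promoter, which is not restricted to a cell type. RNA of whole islets was sequenced 48 hr later, which gave 15 libraries, 5 per virus. All groups therefore carried an adenovirus, no group was left untransduced, and the age of the mice is not given in the sources used here. A library is a pool of animals, so the spread between libraries is a spread between days.

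Values are estimated (expected) read counts per gene, divided by a scaling factor per library, and are called normalized counts here. Depth ran between 13358 and 21129 per library, in units of 1000 expected counts, and 1 expected count was worth between 0.778 and 1.34 normalized counts. The transgenes followed the labels. Nfatc1 averaged 27619 normalized counts in ca-Nfatc1 islets and 247 in GFP islets, and Nfatc2 averaged 58496 in ca-Nfatc2 islets and 566 in GFP islets. Among the ca-Nfatc2 libraries, Nfatc2 was highest in replicate 4, at 89098 normalized counts. All 8 beta-cell markers examined were detected in every library, and their summed level, in units of 1000 normalized counts, was 780 to 1167 in ca-Nfatc1 islets and 523 to 940.1 in ca-Nfatc2 islets, against 1115 to 1660 in GFP islets. Whole islets hold several cell types, so fewer cells of a type and less RNA per cell cannot be told apart in these values.

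Polycomb proteins keep genes silent. PRC2 methylates histone H3 at lysine K27 through the alternative catalytic subunits Ezh2 and Ezh1, with Suz12 and Eed as essential partners, and PRC1 reads this mark through Cbx proteins and ubiquitinates histone H2A with the help of Pcgf proteins such as Bmi1. DNA methylation is set by Dnmt3a and Dnmt3b and is copied after each round of DNA replication by Dnmt1, which Uhrf1 brings to newly copied DNA. In beta-cells, Ezh2 and Bmi1 are known for repressing Cdkn2a, an inhibitor of the cell cycle, and Dnmt3a for repressing Hk1 and Ldha, enzymes that a mature beta-cell keeps low.

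The DNA next to the start sites of these genes was searched for 2 kinds of short motif, and it is shown for 5 members with a match whose RNA changed in at least 1 comparison. GGAAA is the core that NFAT proteins bind, and TTTGGCGC, TTTCCCGC, TTTCGCGC and TTTGCCGC are spellings of the site bound by E2F proteins, which drive genes of DNA replication. RefSeq promoter windows (assembly GRCm38.p6, 250 bases before to 50 bases after a start) were at hand for 9 of the 10 members, in 14 windows. Both strands were searched. An E2F spelling was found in 4 windows, of 4 members (Uhrf1, Dnmt1, Ezh2 and Suz12), compared with 2.26% of all 32851 promoter windows and 5.15% of the 8701 windows with at least 20 CG dinucleotides. The NFAT core was found in 8 of the 14 windows, of 6 members (Uhrf1, Dnmt1, Suz12, Eed, Ezh1 and Bmi1), compared with 61.3% of all windows and 48.8% of those rich in CG. The downstream start of Uhrf1, the gene with the largest change with ca-Nfatc2, has TTTCGCGC 185 bases before it, and the capitals in each stretch mark the E2F spelling:
Uhrf1, chr17:56304063-56304212, plus strand: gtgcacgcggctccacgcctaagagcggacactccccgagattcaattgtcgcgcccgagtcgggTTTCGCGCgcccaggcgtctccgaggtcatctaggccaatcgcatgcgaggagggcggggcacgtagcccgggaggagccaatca
Suz12, chr11:79992856-79993005, plus strand: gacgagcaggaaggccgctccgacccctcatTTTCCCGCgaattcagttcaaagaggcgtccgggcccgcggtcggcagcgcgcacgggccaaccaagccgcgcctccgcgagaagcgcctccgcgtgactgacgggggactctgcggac
Ezh2, chr6:47595009-47595038, minus strand: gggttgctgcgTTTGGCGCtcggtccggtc
Dnmt1, chr9:20952824-20952853, minus strand: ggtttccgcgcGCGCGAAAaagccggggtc

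In Dnmt1 the spelling TTTCGCGC lies on the opposite strand, 219 bases before the most downstream of 3 starts, and inside an exon of a longer transcript, as does the Ezh2 stretch, so only 30 bases of each are printed. A second spelling in that Dnmt1 window, TTTGGCGC, begins 34 bases downstream of the start. The letters TTTCCCGC in Suz12 overlap an NFAT core on the other strand. Ezh1, which has no E2F spelling in its window, has an NFAT core 120 bases before its start, marked by capitals:
Ezh1, chr11:101226464-101226613, minus strand: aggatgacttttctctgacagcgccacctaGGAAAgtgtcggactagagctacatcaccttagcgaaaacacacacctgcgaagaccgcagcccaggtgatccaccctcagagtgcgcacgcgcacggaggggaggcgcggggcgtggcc

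A match is a string of letters and not a measured binding site. Dnmt3a, Eed and Cbx2 also changed, as described next. The 3 windows of Dnmt3a hold neither motif, the Eed window has an NFAT core and no E2F spelling, and no window was used for Cbx2.

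The response of the 10 genes to ca-Nfatc2 was mixed in direction and was led by Uhrf1. Of the 10, 5 were higher (Uhrf1, Cbx2, Dnmt1, Eed and Ezh2), 2 were lower (Dnmt3a and Ezh1) and 3 did not pass the test (limma, adjusted p under 0.05 over all 14151 genes). Over all genes, 35.7% were called higher and 32.8% lower in response to ca-Nfatc2, and the counts of 5 and 2 among 10 genes are to be read against those shares. Their median log2 difference was 0.35, compared with 0.01 over all genes tested. In response to ca-Nfatc1, none of the 10 was higher, also by limma voom and at an unadjusted p under 0.05 (0 genes each), and 3 were lower (Ezh2, Suz12 and Dnmt3a), against background shares of 28.4% higher and 28.4% lower. The median log2 difference of the 10 genes was -0.16, compared with -0.02 over all genes. The groups for ca-Nfatc1 and ca-Nfatc2 were set against the same GFP libraries. Quantile normalization moved the median of all genes by -0.10 for ca-Nfatc1 and -0.11 for ca-Nfatc2, and changed the share of higher among called genes for ca-Nfatc1 to 38.3%, against 49.96% with the scaling of the deposited values.

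**Figure D1:**
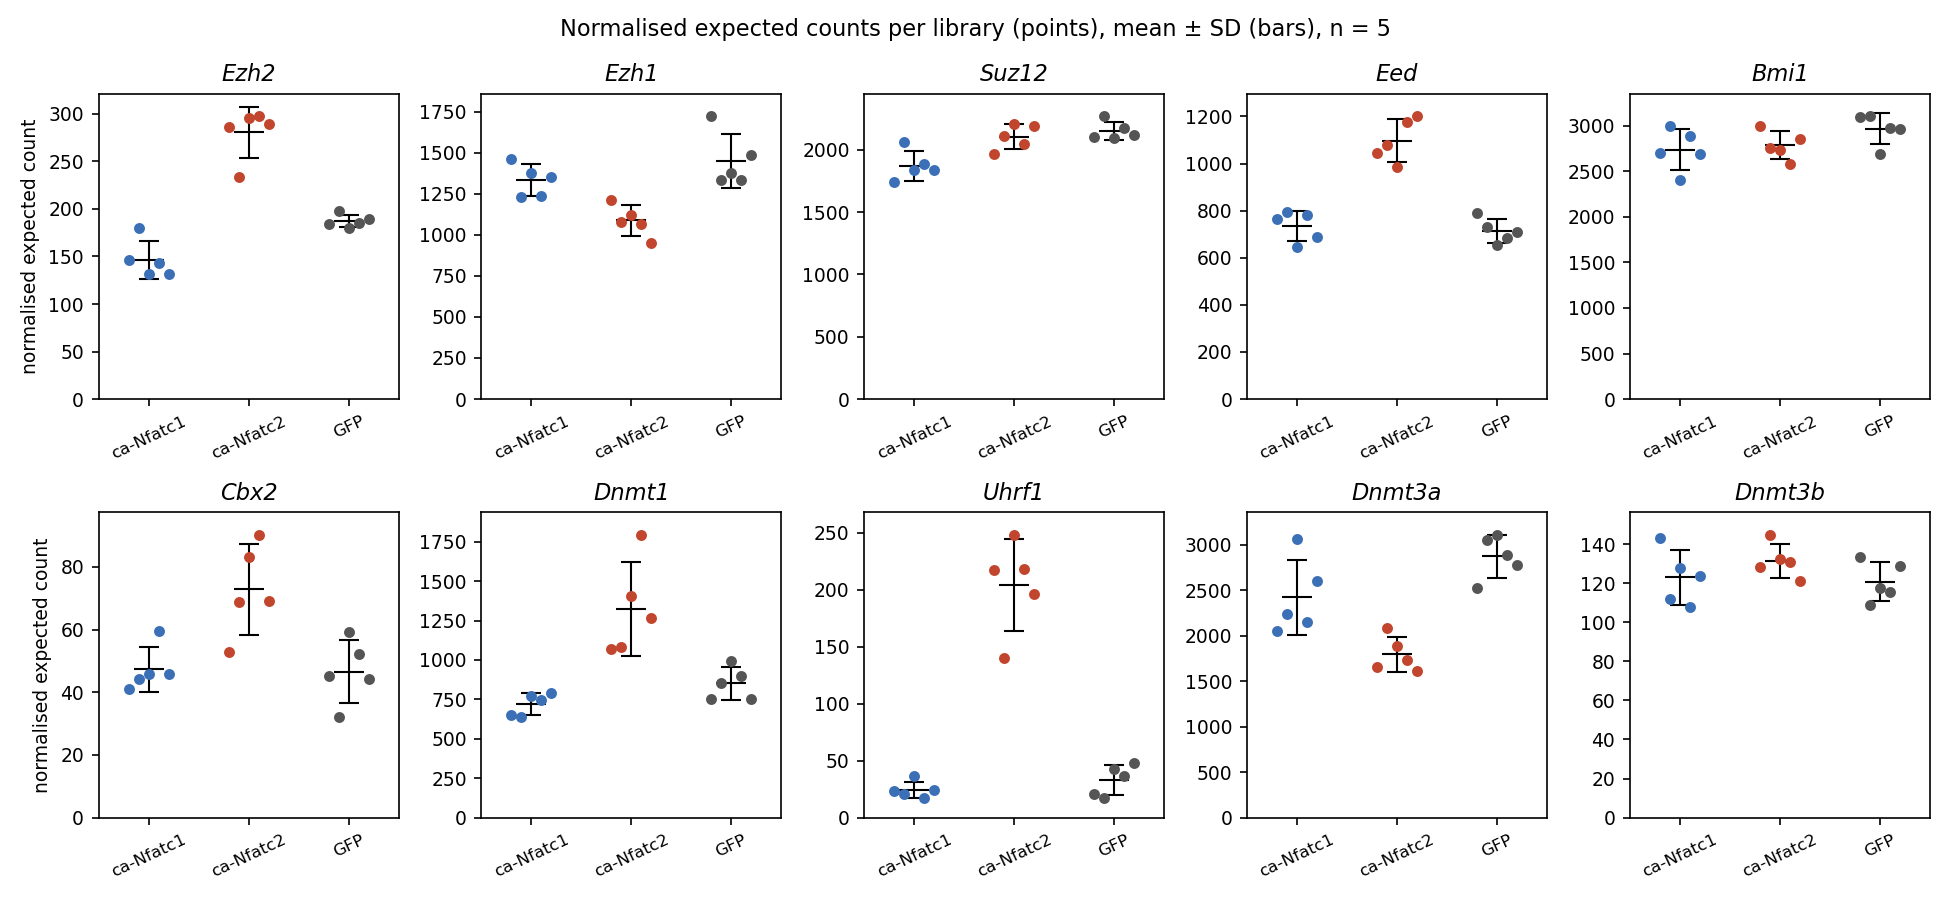
Normalized expected counts (vertical axes, starting at 0) of the 10 genes in each of the 15 libraries, with 1 point per library and bars for the mean ± SD of 5 libraries. Uhrf1 lies between 139.9 and 248 in all ca-Nfatc2 libraries and at or under 47.9 in all GFP libraries, while Dnmt3a and Ezh1 are lower in every ca-Nfatc2 library than in any GFP library.

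Ezh2, the PRC2 catalytic subunit of dividing cells, moved in opposite directions with the 2 forms of NFAT. It had 287, 233, 296, 298 and 289 normalized counts in ca-Nfatc2 islets (replicates 1 to 5), against 184, 198, 180.0, 185 and 189 in GFP islets. The ca-Nfatc1 islets had 146, 180.4, 131, 143 and 131. Every ca-Nfatc2 library was above every GFP library, and each ca-Nfatc1 library was below the GFP library of its own day, although replicate 2 of ca-Nfatc1 reached the lowest GFP value. The log2 difference to GFP was 0.58 ± 0.10 (SE) for ca-Nfatc2 (limma adjusted p = 4.93e-05) and -0.36 ± 0.10 for ca-Nfatc1 (adjusted p = 0.00437). Ezh2 is among the genes that the study itself picked from these libraries, so its direction is not independent evidence.

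Ezh1, the PRC2 catalytic subunit of resting cells, went the other way. It had 1213, 1080.3, 1122, 1067 and 952 normalized counts in ca-Nfatc2 islets, against 1722, 1331, 1378, 1335 and 1487 in GFP islets. These groups did not overlap, and the log2 difference was -0.41 ± 0.08 (limma adjusted p = 0.000196). In ca-Nfatc1 islets Ezh1 had 1462, 1232, 1378, 1236 and 1350.3, which overlapped GFP, with a log2 difference of -0.12 and a 95% interval of -0.29 to 0.05 (adjusted p = 0.217).

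A ratio of 2 genes within a library does not depend on how that library was scaled, apart from the 1 added to each value before the log2. The log2 ratio of Ezh2 to Ezh1 was -1.95 ± 0.19 (SD, n = 5) in ca-Nfatc2 islets and -2.94 ± 0.18 in GFP islets, so that Ezh2 counts were 0.258 of Ezh1 counts with ca-Nfatc2 and 0.130 of them with GFP. That is a 1.98-fold difference without overlap of the libraries (exact permutation test, two-sided, p = 0.00794, the smallest that 5 against 5 allows, adjusted p = 0.0132 over 15 ratio tests). The ratio averaged -3.18 ± 0.26 in ca-Nfatc1 islets, 0.24 below GFP (exact permutation p = 0.127, adjusted p = 0.159), and this difference passed only without ca-Nfatc1 replicate 2, at 0.35 below GFP with an adjusted p of 0.0325.

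Eed, the PRC2 subunit that binds the finished H3K27 mark, was induced by ca-Nfatc2. It had 1045, 1079, 984, 1177 and 1201 normalized counts in ca-Nfatc2 islets, against 792, 732, 656, 683 and 710.3 in GFP islets. The groups did not overlap, and the log2 difference was 0.62 ± 0.08 (limma adjusted p = 1.24e-06). With ca-Nfatc1, Eed had 766, 794, 647, 783 and 690.0, within the range of GFP but for 2 libraries, and its log2 difference was 0.04 with a 95% interval of -0.12 to 0.20 (adjusted p = 0.668).

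Suz12, the scaffold of PRC2, changed little. It had 1738, 2063, 1837, 1888 and 1836 normalized counts in ca-Nfatc1 islets, against 2105, 2269, 2090.2, 2170.2 and 2121 in GFP islets, and the groups did not overlap. The log2 difference was -0.20 ± 0.05 (limma adjusted p = 0.00436). In ca-Nfatc2 islets Suz12 had 1968, 2112, 2206, 2049 and 2188, mixed with the GFP values, and the log2 difference of -0.03 had a 95% interval of -0.15 to 0.08 (adjusted p = 0.617).

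Bmi1, the Pcgf subunit of PRC1 and the member with the highest level per length, did not pass any test. It averaged 2735 ± 227 normalized counts in ca-Nfatc1 islets, 2784 ± 152 in ca-Nfatc2 islets and 2968 ± 166 in GFP islets (SD, n = 5 each), and all 3 groups overlapped. The 95% interval of the log2 difference to GFP was -0.26 to 0.02 for ca-Nfatc1 and -0.23 to 0.04 for ca-Nfatc2.

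Cbx2, a PRC1 subunit that reads H3K27 methylation, was scarce and was higher with ca-Nfatc2. It had 52.8, 68.7, 83.1, 90.3 and 69.2 normalized counts in ca-Nfatc2 islets, against 45.1, 32.3, 59.2, 52.2 and 44.2 in GFP islets. The groups overlapped by replicate 1 of ca-Nfatc2, but each ca-Nfatc2 library was above the GFP library of its day, and the log2 difference was 0.64 ± 0.18 (limma adjusted p = 0.00393). Quantile normalization ended this call, at a log2 difference of 0.32, or 0.42 relative to the median of all genes, with an adjusted p of 0.0975. In ca-Nfatc1 islets Cbx2 had 40.9, 44.3, 45.9, 59.5 and 45.9, a log2 difference of 0.04 with a 95% interval of -0.33 to 0.41.

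Cbx7, which takes the same place in PRC1, rose with both forms of NFAT, by 0.98 ± 0.08 on the log2 scale for ca-Nfatc1 and 0.72 ± 0.08 for ca-Nfatc2 (limma adjusted p = 1.37e-08 and 5.4e-07). It averaged 2235 ± 179.5 normalized counts in ca-Nfatc1 islets and 1860.3 ± 158 in ca-Nfatc2 islets, against 1132 ± 129 in GFP islets. The log2 ratio of Cbx2 to Cbx7 was therefore 0.95 lower with ca-Nfatc1 than with GFP (exact permutation p = 0.00794, adjusted p = 0.0132), averaging -5.54 ± 0.15 and -4.59 ± 0.31. With ca-Nfatc2, where both genes were higher, it averaged -4.67 ± 0.25 and differed from GFP by -0.08 (exact permutation p = 0.690, adjusted p = 0.797).

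Uhrf1, which brings Dnmt1 to newly replicated DNA, had the largest change of the 10 genes with ca-Nfatc2. It had 217, 139.9, 248, 218 and 196 normalized counts in ca-Nfatc2 islets, against 21.1, 17.5, 42.5, 36.6 and 47.9 in GFP islets. The lowest ca-Nfatc2 library was above the highest GFP library, and the log2 difference was 2.66 ± 0.26 (limma adjusted p = 6.9e-08), with means that differed 6.16-fold. The ca-Nfatc1 islets had 23.7, 21.0, 36.3, 17.1 and 24.1, inside the range of GFP but for replicate 4. Their log2 difference was -0.36 with a 95% interval of -0.91 to 0.18 (adjusted p = 0.246), and it passed after quantile normalization, at -0.74, or -0.62 relative to the median of all genes (adjusted p = 0.00769).

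Uhrf2, its close relative, fell with both forms of NFAT, by 0.32 on the log2 scale for ca-Nfatc1 and by 0.38 for ca-Nfatc2, each ± 0.06 (limma adjusted p = 9.09e-05 and 8.62e-06). Within the library, the log2 ratio of Uhrf1 to Uhrf2 was -2.58 ± 0.34 in ca-Nfatc2 islets and -5.62 ± 0.68 in GFP islets, an 8.24-fold difference (exact permutation p = 0.00794, adjusted p = 0.0132). The ca-Nfatc1 islets, at -5.67 ± 0.39, overlapped GFP (exact permutation p = 0.889).

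Dnmt1, the methyltransferase that maintains DNA methylation, was induced by ca-Nfatc2. It had 1069.5, 1084, 1407, 1795 and 1266 normalized counts in ca-Nfatc2 islets, against 754, 854, 995, 901 and 753 in GFP islets. The groups did not overlap, and the log2 difference was 0.62 ± 0.12 (limma adjusted p = 0.000255). The highest value was in replicate 4, the library with the most Nfatc2 RNA, and without it the log2 difference was 0.50. In ca-Nfatc1 islets Dnmt1 had 649.7, 637, 771, 748 and 789, lower than the GFP library of the same day on 4 of 5 days. That log2 difference of -0.24 ± 0.12 did not pass (limma adjusted p = 0.105) but did with the day of isolation as a replicate block (adjusted p = 0.0224), after quantile normalization (0.0485), with the 2 groups fitted alone (0.0373) and without ca-Nfatc2 replicate 4 (0.0412).

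Dnmt3a, a de novo methyltransferase and the most abundant DNA methyltransferase in GFP islets, was suppressed. It had 1659, 2082, 1886, 1733 and 1606 normalized counts in ca-Nfatc2 islets, against 2523, 3049.7, 3109, 2889 and 2773 in GFP islets. These groups did not overlap, and the log2 difference was -0.68 ± 0.10 (limma adjusted p = 1.12e-05). In ca-Nfatc1 islets the values were 2048, 2240.3, 3059, 2151 and 2599.9, each below the GFP library of its day while the groups overlapped. The log2 difference was -0.26 ± 0.10 (limma adjusted p = 0.0374), and this call was lost with libraries scaled to equal totals (adjusted p = 0.151) and without any of GFP replicates 2, 3 or 4 or ca-Nfatc1 replicates 1, 2 or 4 (0.063 to 0.103).

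Dnmt3b, the other de novo methyltransferase, was low and did not pass any test. It averaged 123 ± 14.03 normalized counts in ca-Nfatc1 islets, 131 ± 8.69 in ca-Nfatc2 islets and 121 ± 10.1 in GFP islets (SD, n = 5 each). The 95% interval of its log2 difference to GFP was -0.19 to 0.23 for ca-Nfatc1 and -0.09 to 0.33 for ca-Nfatc2.

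The balance of the methyltransferases shifted in response to ca-Nfatc2. The log2 ratio of Dnmt1 to Dnmt3a was -0.46 ± 0.37 in ca-Nfatc2 islets and -1.76 ± 0.10 in GFP islets, so that Dnmt1 counts were 0.728 of Dnmt3a counts with ca-Nfatc2 and 0.296 of them with GFP (exact permutation p = 0.00794, adjusted p = 0.0132). In replicate 4 of ca-Nfatc2 the log2 ratio was 0.05, the only library of the 15 in which it was above 0. It was -1.74 ± 0.17 in ca-Nfatc1 islets, 0.02 above GFP (exact permutation p = 0.849, adjusted p = 0.889). The log2 ratio of Dnmt3b to Dnmt3a was 0.80 higher with ca-Nfatc2 than with GFP, at -3.76 ± 0.07 and -4.56 ± 0.23 (exact permutation p = 0.00794, adjusted p = 0.0132), while Dnmt3b itself did not pass.

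**Figure D2:**
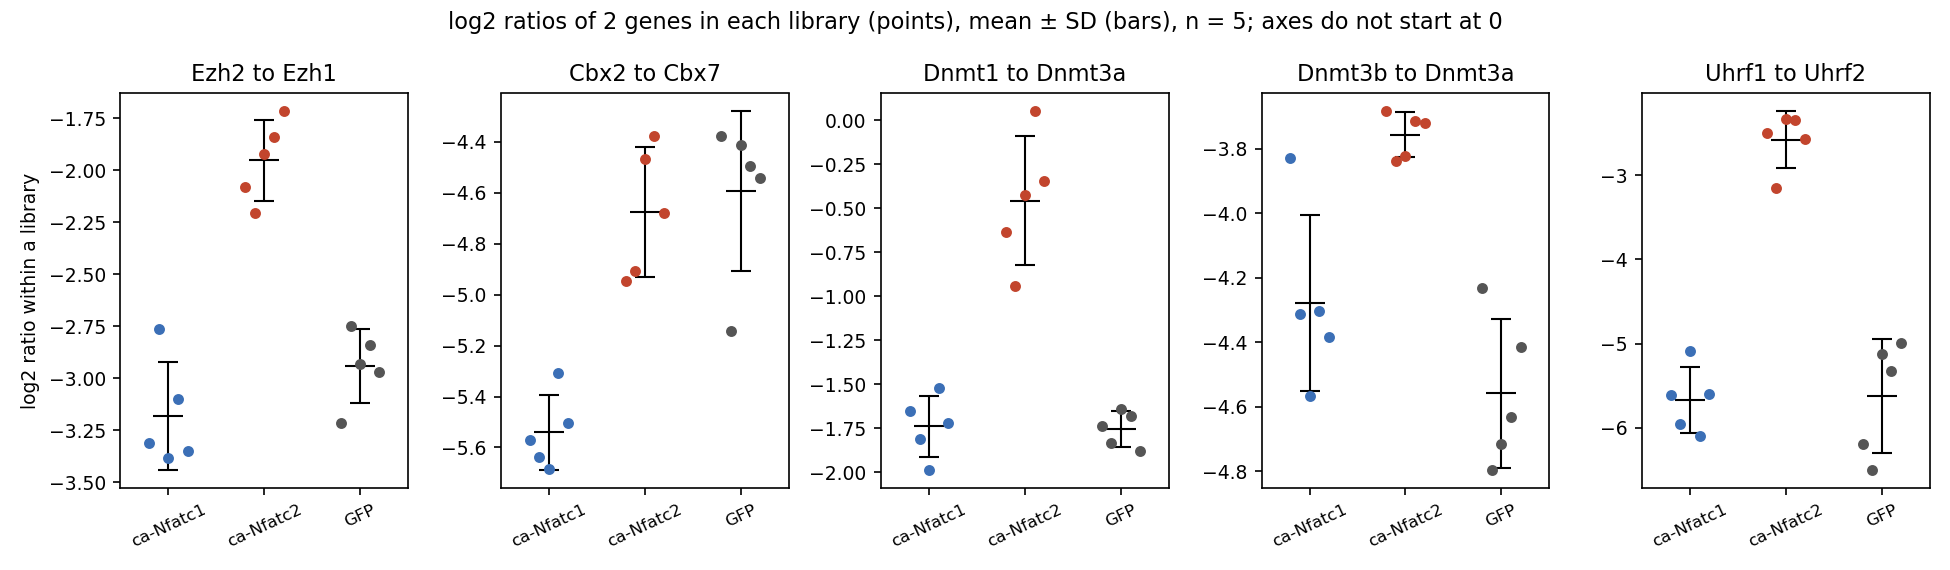
Log2 ratios of 2 genes within each library (vertical axes, which do not start at 0), with 1 point per library and bars for the mean ± SD of 5 libraries. The ca-Nfatc2 libraries stand apart from the GFP libraries for Ezh2 to Ezh1, Dnmt1 to Dnmt3a, Dnmt3b to Dnmt3a and Uhrf1 to Uhrf2, and the ca-Nfatc1 libraries stand apart for Cbx2 to Cbx7.

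The 2 forms of NFAT were also compared with each other, which asks whether these genes differed between the 2 viruses as used. Nfatc1 RNA averaged 27619 normalized counts in ca-Nfatc1 islets and Nfatc2 RNA 58496 in ca-Nfatc2 islets, so the form and its level cannot be told apart. Of the 10, 6 were higher in ca-Nfatc2 than in ca-Nfatc1 islets, against a background of 23.6% called higher over all genes, and 2 were lower, against 25.7%. The higher ones were Uhrf1 (log2 difference 3.03 ± 0.26), Ezh2 (0.94 ± 0.10), Dnmt1 (0.86 ± 0.12), Cbx2 (0.60 ± 0.18), Eed (0.58 ± 0.08) and Suz12 (0.17 ± 0.05), with limma adjusted p between 5.47e-08 for Uhrf1 and 0.0160 for Suz12. The lower ones were Dnmt3a (-0.42 ± 0.10, adjusted p = 0.00216) and Ezh1 (-0.29 ± 0.08, adjusted p = 0.00581). Ezh2, Eed, Dnmt1 and Uhrf1 were higher, and Ezh1 lower, in every ca-Nfatc2 library than in any ca-Nfatc1 library. Bmi1 and Dnmt3b did not pass, with 95% intervals of -0.11 to 0.16 and -0.11 to 0.31. Of the ratios, Ezh2 to Ezh1 was 2.35-fold, Dnmt1 to Dnmt3a 2.43-fold and Uhrf1 to Uhrf2 8.51-fold higher with ca-Nfatc2 than with ca-Nfatc1 (exact permutation p = 0.00794, adjusted p = 0.0132 each).

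**Figure D3:**
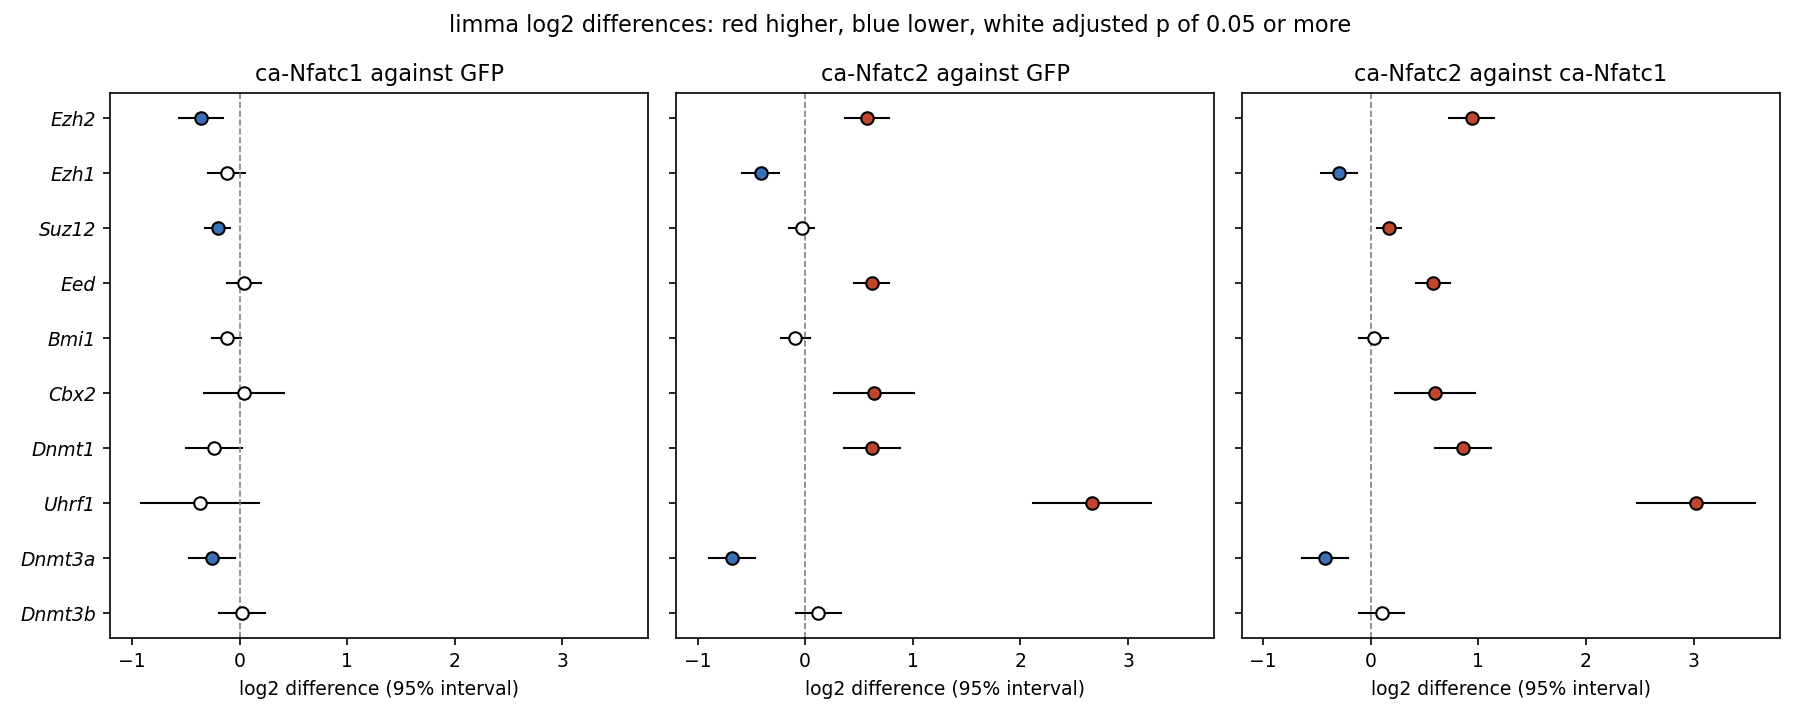
Log2 differences of the 10 genes (horizontal axes) with 95% intervals from limma, for each form of NFAT against GFP and for the difference between the forms (ca-Nfatc2 over ca-Nfatc1). Uhrf1 lies at 2.66 and 3.03 in the comparisons with ca-Nfatc2, where Ezh2, Eed, Cbx2 and Dnmt1 lie between 0.58 and 0.94.

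Levels were compared between genes per kb of the longest RefSeq transcript of each gene. In ca-Nfatc2 islets the order was Bmi1 (775 normalized counts per kb), Eed (531), Suz12 (481), Ezh1 (259), Dnmt1 (239), Dnmt3a (185), Ezh2 (101), Uhrf1 (56.9), Dnmt3b (30.4) and Cbx2 (19.1). In GFP islets it was Bmi1 (826), Suz12 (492), Ezh1 (346), Eed (346), Dnmt3a (296), Dnmt1 (154), Ezh2 (67.2), Dnmt3b (28.0), Cbx2 (12.2) and Uhrf1 (9.23). Uhrf1 thus stood above Dnmt3b with ca-Nfatc2 and at the bottom with GFP, and in the libraries with GFP it overlapped its neighbor Cbx2. Neighbors that overlapped with ca-Nfatc2 were Eed and Suz12, Ezh1 and Dnmt1, and Dnmt1 and Dnmt3a, and with GFP they were Ezh1, Eed and Dnmt3a. The order with ca-Nfatc1 was that with GFP except that Eed (356) stood above Ezh1 (318), and these overlapped, as did Ezh1 and Dnmt3a. RefSeq transcripts of Dnmt3a run between 5424 and 9685 bases, and per kb of the shortest one its level in GFP islets would be 529, above Suz12.

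Genes of proliferating cells moved with ca-Nfatc2 as well. Mki67, a marker of cycling cells, had 1460.3, 1232, 1479.5, 874 and 898 normalized counts in ca-Nfatc2 islets, against 124, 84.7, 142, 94.3 and 123 in GFP islets, a log2 difference of 3.37 ± 0.17 (limma adjusted p = 7.26e-12). Top2a, the topoisomerase of dividing cells, rose by 3.09 ± 0.21 and Pcna, the clamp of the replication fork, by 0.92 ± 0.08 (adjusted p = 4.28e-10 and 2.02e-08). Mki67 and Top2a were lowest in replicates 4 and 5 of ca-Nfatc2. With ca-Nfatc1, Mki67 ran between 85.2 and 116, against 84.7 and 142 with GFP, and Top2a had a log2 difference of -0.51 (adjusted p = 0.0416). The part of cycling cells in the changes of Uhrf1, Dnmt1 and Ezh2 was not tested.

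Marker genes of other cell types were read in the same way. The summed level of 6 leukocyte markers was 338 to 433 in ca-Nfatc1 islets and 239 to 335 in ca-Nfatc2 islets, against 291 to 421 in GFP islets, that of 4 endothelial markers was 1602 to 2361 and 1331 to 1869.8, against 1901 to 2819, and that of 4 mesenchymal markers was 2315 to 4423 and 1656 to 3014, against 2562 to 4253. Against GFP, ca-Nfatc2 gave 1 leukocyte marker higher and 1 lower of 4 tested, and 3 of 4 endothelial and 3 of 4 mesenchymal markers lower. With ca-Nfatc1 no leukocyte or endothelial marker passed, and 1 mesenchymal marker was lower. Over all genes, 35.7% were called higher and 32.8% lower with ca-Nfatc2, and 28.4% each way with ca-Nfatc1. All counts of markers called here are to be read against those shares. The leukocyte marker that was higher, Itgam, had 47.6, 40.5, 49.5, 132 and 78.0 normalized counts in ca-Nfatc2 islets, against 28.8, 25.6, 30.2, 31.1 and 39.6 in GFP islets, without overlap (limma adjusted p = 0.00283). The leukocyte markers Ptprc, Cd68 and Emr1 went the other way. They averaged 62.7, 96.8 and 63.9 in ca-Nfatc2 islets, against 78.9, 165.7 and 87.3 in GFP islets. Of 4 duct markers 3 were tested, and 2 were higher with each form of NFAT, while their summed level, at 2632 to 3339 in ca-Nfatc1 islets and 1124.5 to 3699 in ca-Nfatc2 islets, overlapped that in GFP islets, at 1650.2 to 3740.1. Among them Sox9, a transcription factor of duct and progenitor cells, had 143, 180.5, 186, 122 and 141 in ca-Nfatc2 islets, against 4.798, 18.8, 26.8, 22.2 and 32.2 in GFP islets, again without overlap (adjusted p = 3.55e-07), and Krt19, a keratin of duct cells, had log2 differences of 5.61 with ca-Nfatc1 and 1.09 with ca-Nfatc2. The other duct markers had lower means than in GFP islets. Spp1 averaged 1628 in ca-Nfatc1 islets and 1916 in ca-Nfatc2 islets, against 2348, and did not pass. Cftr, which was too low for a test, averaged 1.24 and 3.18, against 4.98. Of 4 acinar markers 2 were tested, Cpa1 and Ctrb1, and both were higher with ca-Nfatc1, although both were at 0 in ca-Nfatc1 replicate 1. The 4 markers summed to 4.09 to 376 in ca-Nfatc1 islets and 7.79 to 44.3 in ca-Nfatc2 islets, against 4.47 to 51.1 in GFP islets. These ranges overlapped. All GFP values of Cpa1 were below 10, the minimum used to choose genes for testing, so its call is not independent of that choice. Sox9, Krt19 and Itgam were singled out after their values were seen. The part of these cell types in the changes of the 10 genes was not tested. The summed level of 4 alpha-cell markers, in units of 1000 normalized counts, was 206 to 250.4 in ca-Nfatc1 islets and 158 to 211 in ca-Nfatc2 islets, against 370.3 to 591 in GFP islets, and 4 of these markers were lower with ca-Nfatc2 and 3 with ca-Nfatc1. In the same units, 2 delta-cell markers summed to 4.49 to 7.07 in ca-Nfatc1 islets and 1.85 to 3.93 in ca-Nfatc2 islets, against 14.3 to 28.4 in GFP islets. Ppy, the marker of pancreatic polypeptide cells, had 25.3 to 31.0 and 15.6 to 25.2, against 37.8 to 51.6. Of the 8 beta-cell markers, 8 were lower with ca-Nfatc2 and 6 with ca-Nfatc1. The part of beta-cells, alpha-cells, delta-cells and pancreatic polypeptide cells in the lower Dnmt3a and Ezh1 was not tested.

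The rest of the Polycomb and DNA methylation machinery was read from a list of further genes. Of 51 further genes 49 were tested, and 14 were higher and 14 lower in ca-Nfatc2 islets, with 15 higher and 12 lower in ca-Nfatc1 islets. Over all genes, 35.7% were higher and 32.8% lower with ca-Nfatc2, and 28.4% each way with ca-Nfatc1, so these counts were at or below the background with ca-Nfatc2 and near it with ca-Nfatc1. The median log2 difference of the 49 genes was -0.03 for ca-Nfatc2 and 0.01 for ca-Nfatc1.

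**Figure D4:**
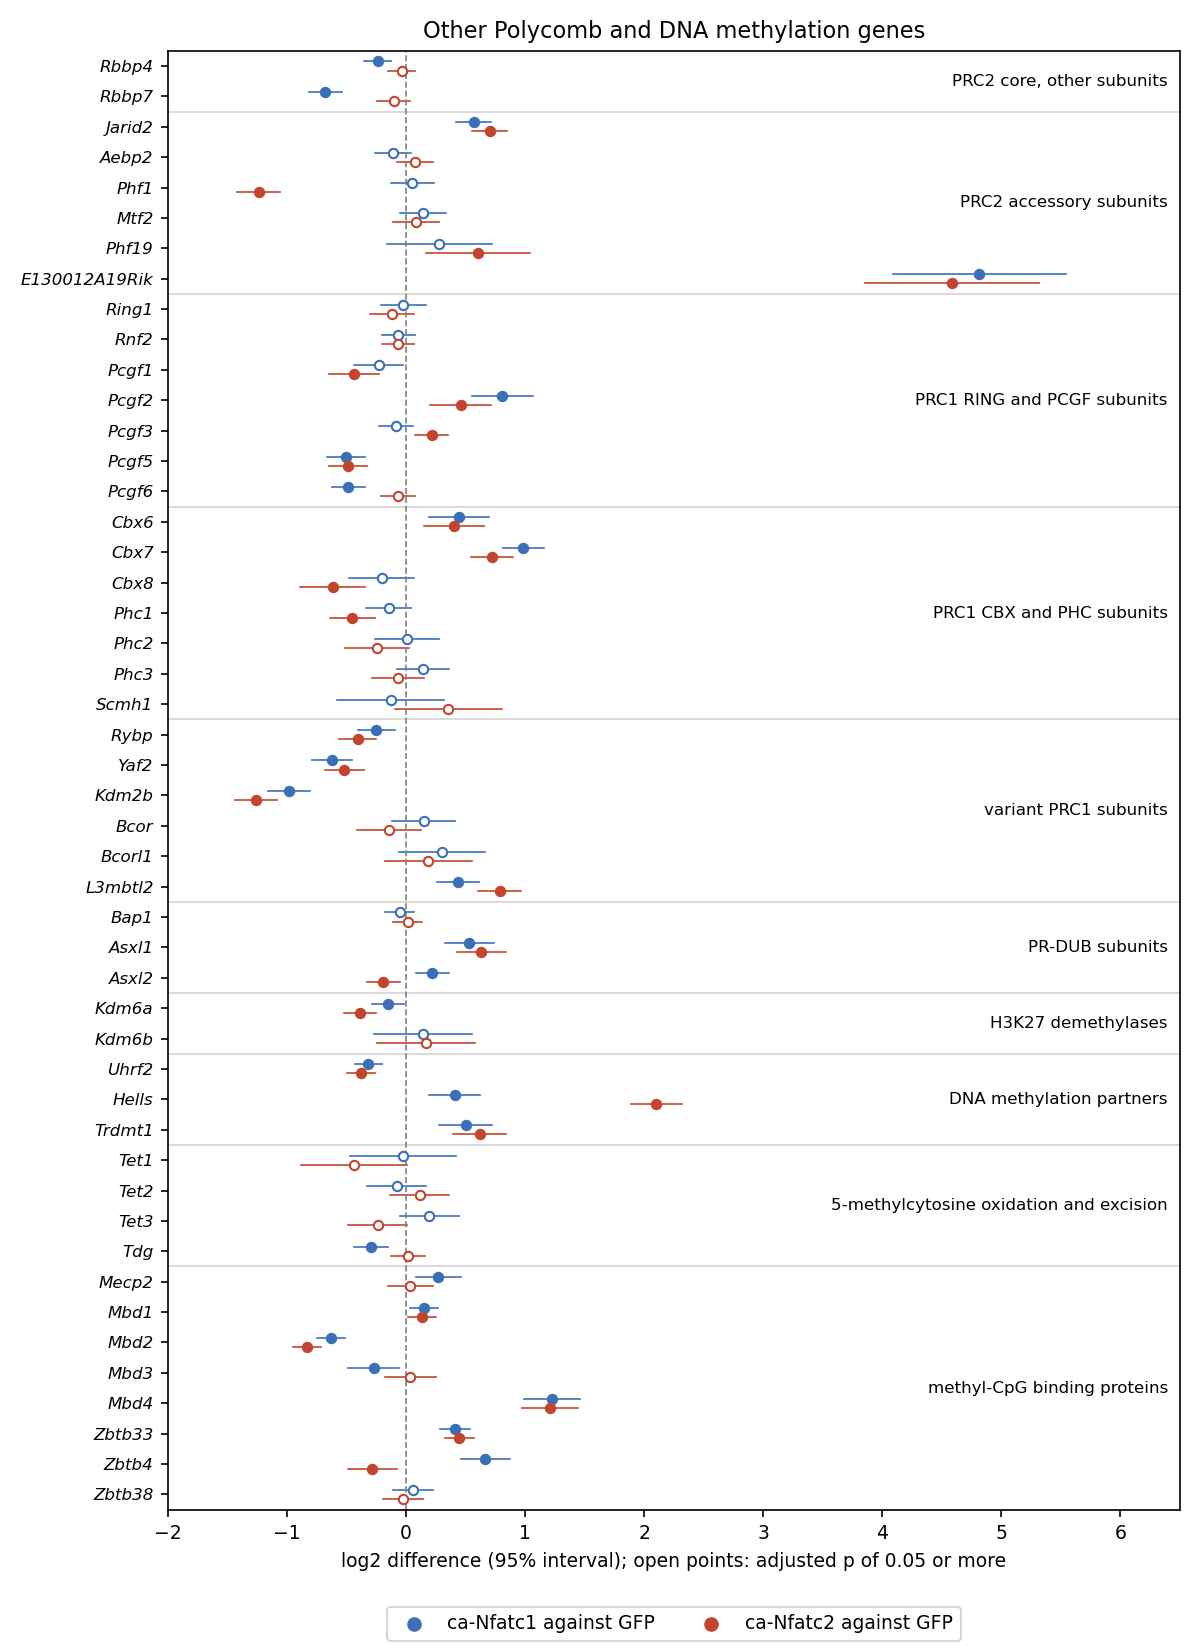
Log2 differences to GFP (horizontal axis) with 95% intervals for 48 of the 49 further Polycomb and DNA methylation genes tested, grouped by complex, with blue for ca-Nfatc1, red for ca-Nfatc2 and open points for genes that did not pass. E130012A19Rik lies above 4 for both, Hells lies at 2.10 for ca-Nfatc2, and Phf1 and Kdm2b lie at -1.24 and -1.26 for ca-Nfatc2.

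Among the remaining PRC2 subunits, the histone-binding partners Rbbp4 and Rbbp7 were both lower with ca-Nfatc1 and did not pass with ca-Nfatc2. Rbbp7 averaged 3157 ± 191 normalized counts in ca-Nfatc1 islets and 4713 ± 418 in ca-Nfatc2 islets, against 5054 ± 238 in GFP islets, and its log2 difference was -0.68 ± 0.07 with ca-Nfatc1 (limma adjusted p = 8.62e-08). Of the 6 accessory subunits, 3 were higher and 1 was lower with ca-Nfatc2, and 2 were higher with ca-Nfatc1 (background 35.7%, 32.8% and 28.4%). E130012A19Rik, the mouse gene of the PRC2 partner EPOP, had 68.7, 65.3, 73.6, 63.9 and 97.2 normalized counts in ca-Nfatc1 islets and 42.4, 58.9, 47.4, 119 and 64.0 in ca-Nfatc2 islets, against 0, 1.34, 3.35, 2.22 and 2.76 in GFP islets. It was near 0 in each GFP library and clearly detected in each library with ca-NFAT (limma adjusted p = 1.62e-09 for ca-Nfatc1 and 2.37e-09 for ca-Nfatc2). All its GFP values were below 10, the minimum used to choose genes for testing, so only libraries with ca-NFAT admitted E130012A19Rik. Its calls as higher are therefore not independent of that choice. Jarid2, which helps PRC2 to find its targets, was higher with both, by 0.57 and 0.70. Phf1, a Polycomb-like subunit, averaged 421 ± 31.3 in ca-Nfatc2 islets and 999.96 ± 133 in GFP islets, a log2 difference of -1.24 ± 0.09 (adjusted p = 6.33e-10), and 1030.4 ± 68.7 in ca-Nfatc1 islets, within the range of GFP.

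In PRC1, the catalytic subunits Ring1 and Rnf2 did not pass in any comparison. Of 7 RING and Pcgf subunits, 2 were higher and 2 lower with ca-Nfatc2, and 1 was higher and 2 were lower with ca-Nfatc1, close to the background of 35.7% and 32.8% with ca-Nfatc2 and 28.4% each way with ca-Nfatc1. Pcgf2, the closest relative of Bmi1, was higher with both, by 0.81 and 0.46, and Pcgf5 was lower with both, by -0.50 and -0.49. Of 8 Cbx, Phc and related subunits, Cbx6 and Cbx7 were higher with both forms of NFAT, and those lower with ca-Nfatc2 included Cbx8 and Phc1. Kdm2b, which takes a variant PRC1 to unmethylated CpG islands, had the largest fall among these genes, at 1083 ± 66.3 normalized counts in ca-Nfatc1 islets and 898 ± 84.7 in ca-Nfatc2 islets, against 2156 ± 266 in GFP islets. Its log2 differences were -0.99 ± 0.08 and -1.26 ± 0.08 (limma adjusted p = 1.35e-08 and 3.57e-10), and Yaf2 and Rybp, its partners in variant PRC1, were lower with both as well. L3mbtl2, another variant PRC1 subunit, was higher with both, by 0.44 and 0.78 (limma adjusted p = 0.000259 and 2.25e-07). Of 6 variant PRC1 subunits, 1 was thus higher and 3 were lower with each form. The background was 35.7% higher and 32.8% lower with ca-Nfatc2, and 28.4% each way with ca-Nfatc1. Of the H3K27 demethylases, Kdm6a was lower, by -0.15 with ca-Nfatc1 (adjusted p = 0.0470) and -0.39 with ca-Nfatc2, and Kdm6b did not pass.

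On the side of DNA methylation, Hells, a chromatin remodeler needed for full methylation, was higher with both forms of NFAT. It had 515, 444, 489, 486 and 510.2 normalized counts in ca-Nfatc2 islets, against 133, 97.8, 99.8, 108 and 131 in GFP islets, without overlap, for a log2 difference of 2.10 ± 0.10 (limma adjusted p = 4.93e-12). With ca-Nfatc1 it averaged 151 ± 13.7, a log2 difference of 0.41 ± 0.10 (adjusted p = 0.00227). The Tet dioxygenases, which oxidize methylcytosine, had log2 differences to GFP between -0.44 and 0.19 that did not pass (limma adjusted p of 0.0746 or more), and the glycosylase Tdg was lower with ca-Nfatc1 by -0.30 (adjusted p = 0.00120). Of 8 genes of the methyl-CpG-binding protein families, 3 were higher and 2 lower with ca-Nfatc2, and 5 were higher and 2 lower with ca-Nfatc1 (background 35.7% higher and 32.8% lower with ca-Nfatc2, and 28.4% each with ca-Nfatc1). Mbd4, a repair glycosylase, was higher by 1.23 on the log2 scale with ca-Nfatc1 and by 1.21 with ca-Nfatc2, and Mbd2, a methyl-CpG reader, had log2 differences of -0.63 and -0.83.

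Genes that supply methyl groups were mostly higher with ca-Nfatc2. Of 8 genes for S-adenosylmethionine and folate metabolism, 7 were higher and 1 was lower in ca-Nfatc2 islets (background 35.7% and 32.8%), with a median log2 difference of 0.56 compared with 0.01 over all genes, and 3 were higher and 2 lower in ca-Nfatc1 islets (background 28.4% each). Shmt1, a serine hydroxymethyltransferase, had 332, 267, 309.7, 346 and 312 normalized counts in ca-Nfatc2 islets, against 61.1, 64.5, 57.6, 49.2 and 73.4 in GFP islets (log2 difference 2.34 ± 0.12, limma adjusted p = 6.52e-12). Mat2a, the enzyme that makes S-adenosylmethionine, was higher by 1.31 ± 0.10 with ca-Nfatc2 and by 0.66 ± 0.10 with ca-Nfatc1 (adjusted p = 3.16e-09 and 2.39e-05).

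A list of 5 genes that these enzymes are known to repress in beta-cells was read as well. With ca-Nfatc2, 3 were higher (Cdkn2a, Hk1 and Ldha) and 2 were lower, Cdkn2b among them (background 35.7% and 32.8%). With ca-Nfatc1, 1 was higher and 2 were lower (background 28.4% each). Cdkn2a was low throughout, with 23.4, 14.7, 11.6, 12.2 and 9.64 normalized counts in ca-Nfatc2 islets, against 8.64, 4.03, 2.24, 8.88 and 5.53 in GFP islets. These groups did not overlap, but their nearest values were close, at 9.64 and 8.88. The log2 difference was 1.21 ± 0.40 (limma adjusted p = 0.0131). All GFP values were below 10, the minimum used to choose genes for testing, so only libraries with ca-NFAT admitted Cdkn2a. Its call as higher is therefore not independent of that choice. With ca-Nfatc1 the log2 difference of Cdkn2a was 0.29 (adjusted p = 0.560). Cdkn2b, its neighbor, was lower with ca-Nfatc1, by -0.40, and with ca-Nfatc2, by -1.19. Hk1 was higher with ca-Nfatc1, by 0.98 ± 0.18, and with ca-Nfatc2, by 0.60 ± 0.18 (adjusted p = 0.000210 and 0.00795). Ldha averaged 1130.4 ± 408 in ca-Nfatc2 islets and 493 ± 93.9 in GFP islets (adjusted p = 2.91e-05), and 515 ± 55.3 in ca-Nfatc1 islets, which overlapped GFP.

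Across the 15 libraries, the genes with the pattern most like each member (Pearson correlation of log2 values, as a description over libraries that share 3 treatments and 5 days) were Pfkfb3, Fignl1 and Cks2 for Uhrf1 (r of 0.97 to 0.99), Orc2, Uchl3 and Mphosph10 for Ezh2 (0.97 to 0.98), and Eef1e1, Twistnb and Gnl3 for Eed (0.98). Mybbp1a, Ubap2l and Ccdc86 were most like Dnmt1 (0.95), Nbeal2, Ubr2 and Gse1 most like Dnmt3a (0.97), and Ano6, Ctns and Tmem50b most like Ezh1 (0.94 to 0.95). The gene most like Suz12 was Rbbp4 (0.95), a subunit of the same complex, that most like Cbx2 was Slc39a6 (0.91), and that most like Bmi1 was Ndufb5 (0.96). The closest genes of Dnmt3b reached only 0.79.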

How the data were processed

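Reads had been mapped to mm10 RefSeq genes by bowtie and summed to expected counts by RSEM. The values deposited by the authors are a normalized signal, in which each library was scaled by its size factor (median by ratio), with 1 value per gene and library (normalized counts). The authors' group means, fold changes and posterior probabilities of expression patterns in the same table were not used.

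The 14151 genes with a 75th percentile above 10 were tested as log2(value + 1) with limma 3.58.1 (R 4.3.3, trend), all 15 libraries in 1 fit without a day term, and p-values were adjusted by Benjamini-Hochberg over these genes. Log2 differences understate changes of low genes. Ratios were tested by exact permutation, two-sided, with scipy 1.17.1. Groups and days came from the labels. Because each day's pool was divided over the 3 viruses, replicate numbers pair the libraries. Deviations of same-day libraries correlated at 0.05 to 0.47 (15 pairs, mean 0.22), and those of other days averaged -0.06. The limma fit was tested on simulated counts with 200 changed genes and no day effect. That simulation does not show how the fit handles libraries that correlate by day. Members, gene lists, ratios and tests were chosen with earlier results of these data known. Named genes are all members, Cdkn2a, Hk1 and Ldha, up to 2 called genes per list and comparison with the largest change, the 3 genes most correlated with each member, and further genes chosen after their values were seen. A few listed genes are not reported here. Gene positions and transcript lengths came from GENCODE vM21 (GRCm38). Alternatives were another pseudocount, filter or scaling, the day as a block, 2 groups fitted alone and each library left out.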

Additional observations from a re-analysis of the deposited data

Results flagged for a closer look

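Of 45 groups of 5 libraries examined (the 10 genes and the 5 ratios with each virus), 3 held a library far from the others, where chance alone flags about 1 in 20. Ezh2 in ca-Nfatc2 replicate 2 was the lowest of its group at 233 normalized counts, with a gap to the next library of 0.829 of the group's range. Cbx2 in ca-Nfatc1 replicate 4 was the highest of its group at 59.5 normalized counts (gap 0.732 of the range). The log2 ratio of Cbx2 to Cbx7 in GFP replicate 2 was the lowest of its group at -5.14 (gap 0.781 of the range). Their causes were not tested.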

How the results depend on the processing

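Of 714 alternative values of the log2 differences of the 10 genes, 691 kept their direction and side of the threshold. The counts of members called were within 1.5 times in 142 of 144 alternatives. With quantile normalization 5 members were lower with ca-Nfatc1 (Uhrf1, Ezh2, Dnmt3a, Dnmt1 and Suz12), and with only genes of mean 100 or more tested 3 were higher with ca-Nfatc2, because Cbx2 and Uhrf1 were then not among the genes tested. Calls that were gained or lost for single genes stand beside their values above. Only differences that did not pass the test changed sign. Against GFP after quantile normalization, ca-Nfatc1 gave -0.017 for Eed, -0.27 for Cbx2 and -0.16 for Dnmt3b, and ca-Nfatc2 gave -0.082 for Dnmt3b. With libraries scaled to equal totals, ca-Nfatc2 gave 0.026 for Suz12. Leaving out each library in turn gave -0.085 to 0.13 for Cbx2 and -0.035 to 0.066 for Dnmt3b with ca-Nfatc1 against GFP, and -0.018 to 0.062 for Bmi1 with ca-Nfatc2 against ca-Nfatc1. Among the ratios, ca-Nfatc1 against GFP gave -0.038 to 0.078 for Dnmt1 to Dnmt3a and -0.26 to 0.11 for Uhrf1 to Uhrf2, and a pseudocount of 10 gave 0.029 for Uhrf1 to Uhrf2. With the day as a replicate block, Dnmt1 passed for ca-Nfatc1 (-0.24, adjusted p = 0.0224) and no other call of a member changed. Paired by day, the ratios had exact sign-flip p-values of at least 0.0625, the smallest that 5 pairs allow, so none could pass (adjusted p = 0.0781 for the 10 that passed unpaired). The cause of these changes was not tested.

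Count-based tests that had been planned were not run, because only 45.2 to 52.3% of the values above 0 came out as whole reads in a library. Limma voom on the recovered expected counts, chosen after seeing the data, called the same members. The low counts of Uhrf1, Cbx2 and Cdkn2a limit the precision of their differences. Libraries are pools of mice, so the tests measure the spread between days.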

Other observations

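Hox genes, the textbook targets of Polycomb repression, stayed mostly below the level needed for a test. Of 38 Hox genes in the table, 4 were tested. Hoxc10 was listed at 0 in all 5 GFP libraries and had 9.82, 12.2, 17.1, 12.1 and 10.9 normalized counts in ca-Nfatc1 islets and 3.46, 7.37, 7.37, 108 and 36.8 in ca-Nfatc2 islets. It was thus detected in every library with ca-NFAT, at a like level in the ca-Nfatc1 libraries and highest in replicates 4 and 5 of ca-Nfatc2. Hoxb3 averaged 17.1 ± 4.44 in ca-Nfatc1 islets, against 8.13 ± 3.52 in GFP islets (limma adjusted p = 0.0228), and 8.07 ± 5.44 in ca-Nfatc2 islets. Its ca-Nfatc1 values were all above 10, the minimum used to choose genes for testing, and most of its other values were below it. The call of Hoxb3 as higher with ca-Nfatc1 is therefore not independent of that choice. Hoxb2 and Hoxb4 did not pass against GFP (adjusted p of 0.0602 or more).

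Zbtb4 and Asxl2 passed the test in opposite directions with the 2 forms of NFAT. Zbtb4, a reader of methylated DNA, averaged 2469 ± 268 normalized counts in ca-Nfatc1 islets and 1283 ± 188 in ca-Nfatc2 islets, against 1554 ± 122 in GFP islets, and the 2 forms of NFAT differed by -0.95 on the log2 scale (ca-Nfatc2 over ca-Nfatc1, limma adjusted p = 4.75e-07). Asxl2, a partner of the H2A deubiquitinase Bap1, was higher by 0.22 with ca-Nfatc1 and had a log2 difference of -0.19 with ca-Nfatc2 (adjusted p = 0.00854 and 0.0149). These genes were picked out after their values were seen.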
